A study of Homo sapiens with 12 samples.

Results

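The transcriptional response of wild-type THP-1 macrophages to bacterial lipopolysaccharide (LPS) was described from the 2335 genes in the authors' deposited table of wild-type cells at 3 hr against 0 hr. The table holds only genes that the authors listed as changed, by a limit of 0.01 on the adjusted p and of 1 log2 on the change, so no gene that missed a limit is in it. A further 946 genes, of 3281 in the series as a whole, were listed for S80A cells alone. THP-1 is a human monocytic leukaemia line. The study compared cells with the NFKB1 gene in its wild-type form with cells in which it carries the S80A change, a serine of the NF-κB subunit p50 replaced by alanine, to ask how this site bears on transcription after LPS.

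All cells were first differentiated with the phorbol ester PMA (25 ng/ml, 72 hr) and rested for 4 days. The wild-type 0 hr group had no LPS and the wild-type 3 hr group had LPS at 10 ng/ml for 3 hr, with 3 libraries in each. The S80A 0 hr and 3 hr groups, also of 3 libraries each, were treated alike, and serve here as a second set of libraries for genes chosen on the wild-type ones. The labels do not say how the S80A cells were made, whether they are 1 clone, or whether replicates were separate cultures, so p-values measure the spread between these libraries, which may be technical. In bulk RNA, a change in the number of cells of a type and a change in RNA per cell cannot be told apart.

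LPS is bound by LBP, CD14 and the TLR4 and MD-2 receptor complex at the macrophage surface. The adaptor MyD88 leads to NF-κB and MAP kinases and to cytokine genes, and the adaptor TRIF (gene TICAM1) leads to IRF3, interferon beta and, through the interferon receptor and STAT factors, to antiviral genes. NF-κB is held in the cytoplasm by IκB proteins until they are degraded, and many of its targets encode inhibitors of the pathway itself.

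Values are scaled reads, which are the counts of a library over its own size factor. Reads on the 2335 genes numbered 1273256 to 1490155 at 0 hr and 3079304 to 3836576 at 3 hr in the wild-type libraries. Genes that were not listed are missing from these totals, so they do not give the sequencing depth, which is unknown here. Spearman correlations between wild-type replicates of a group were 0.980 to 0.993 across genes, which are not independent replicates, and no pair agreed within sampling noise. Counting intervals and floors below cover counting error only. They pool the reads of a group, and the authors' deposited fold changes can be smaller than a floor, as for CSF2, IL12B and BCL2L14. Of 10 macrophage markers, CD14, CD163 and MERTK were in the table, all as falling genes, and CD68, ITGAM, CD36, MSR1, MRC1, CSF1R and CD86 were not in it. Of the 25 genes that mark cells other than macrophages, only CD79B was listed (from 30.5 to 10.0 scaled reads), and of 12 markers of undifferentiated THP-1 cells and precursors, CD34 alone (from 0.538 to 16.4 scaled reads).

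NFKB1, the gene that differs between the genotypes of the study and that encodes the p105 precursor of p50, was at 848, 791 and 987 scaled reads at 0 hr and 22659.9, 24064 and 23146 at 3 hr in wild-type cells. Its 3 hr libraries lay close together and far above the 0 hr libraries. In S80A cells it was at 759.9, 928 and 1062 scaled reads at 0 hr and 28402, 21622 and 19572 at 3 hr. Since S80A alters 1 residue, read counts of NFKB1 cannot check the genotype labels. The gene lies on chromosome 4, 102501329 to 102617302, on the plus strand of GRCh38.

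After 3 hr of LPS, 1441 genes were listed as rising and 894 as falling in the authors' deposited table. These are 8.24% and 5.11% of the 17486 genes that the adjusted p-values imply were tested, and 13.4% together. Every gene was chosen for this change in these same libraries, so the contrast at 3 hr against 0 hr is given as a description. The wild-type groups of libraries did not overlap for 2327 of the 2335 genes (99.7%), and a limma fit on log2(scaled reads + 1) called 2334 of them (100%), from which nothing is read for the same reason. INHBE, an inhibin subunit gene, was the one it did not call (limma adjusted p = 0.0967, and 0.000577 with the replicate number as a block).

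The largest rises began from the lowest levels. The level at 0 hr is also the divisor of the fold. A gene with almost no read at rest could be listed only by rising, so this order is a description. Of the rising genes, 629 had a log2 fold change of 1 to 2, 564 of 2 to 4, 186 of 4 to 6 and 62 of over 6, in the authors' deposited table. The median level at 0 hr was 305 scaled reads in the first class, 32.6 in the second, 6.58 in the third and 3.82 in the last. At 3 hr the same medians were 805, 225, 234.5 and 2174 scaled reads. Genes of the last class were also short, with a median span in GENCODE of 14980 bases against 38470.5 bases for the class of 1 to 2, and a largest exon number per transcript of 6 against 9 in the median. Falls were smaller than rises, with 693 genes at 1 to 2 log2, 191 at 2 to 4 and 10 beyond 4 in the authors' deposited table. A fall ends at 0 reads, which limits its size in genes with few reads at rest. Median levels of falling genes went from 262 to 98.3 scaled reads in the first of these classes and from 164 to 3.10 in the last.

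**Figure D1:**
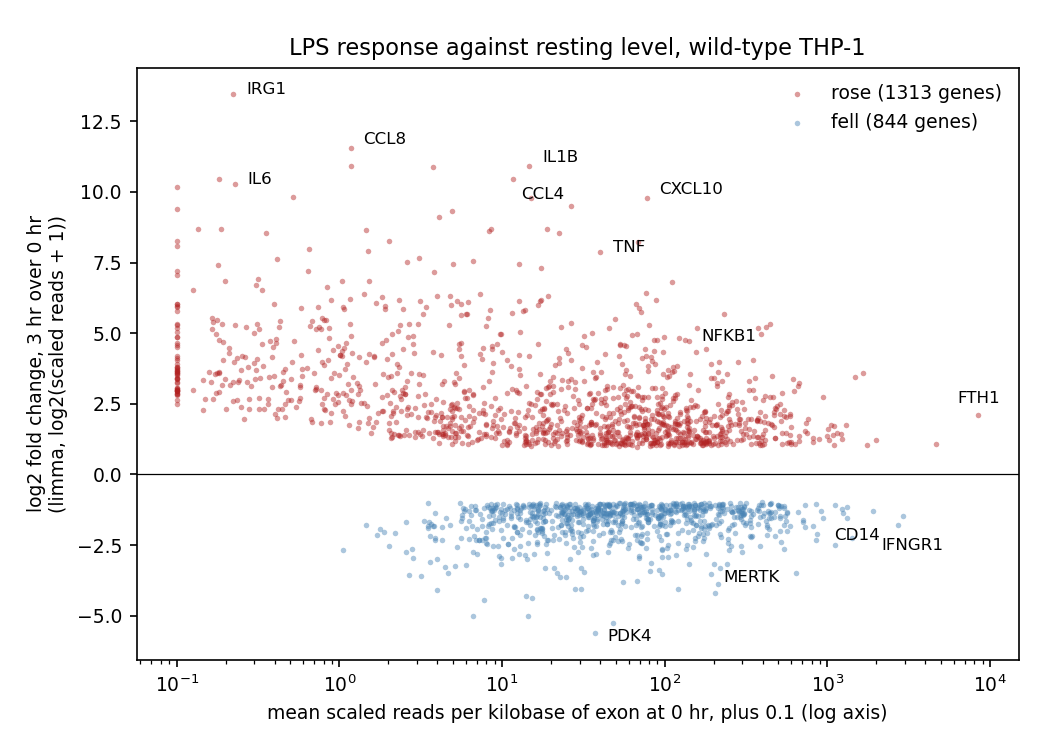
Log2 fold change at 3 hr over 0 hr (limma, on log2(scaled reads + 1)) against the mean scaled reads per kilobase of exon at 0 hr plus 0.1 (log axis), for the 2157 genes with 1 place in GENCODE, 1 point per gene, red for rising and blue for falling genes. The largest rises stand at the left, among genes with little RNA at rest, where the level at 0 hr is also the divisor of the fold. FTH1 stands alone at the far right, and the empty band around 0 is the authors' limit of 1 log2.

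Rising genes took most of the listed reads at 3 hr. They were chosen for rising in these same libraries, so a larger share at 3 hr was fixed in advance. The shares are given as a description. Of the scaled reads on the 2335 genes, 54.5 ± 0.774% were on rising genes at 0 hr and 95.1 ± 0.364% at 3 hr (SD, n = 3). The 10 rising genes with the most scaled reads at 3 hr, SOD2, TNFAIP2, FTH1, IL1B, CXCL10, PLEK, LCP1, IFIT2, ICAM1 and CCL4L1, held 4.33 ± 0.217% of them at 0 hr and 16.2 ± 0.211% at 3 hr. Without these 10 genes the share on rising genes was 52.4 ± 0.827% and 94.1 ± 0.444%.

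Among the 2157 genes with 1 place and so an exon length in GENCODE, those with the largest gain in scaled reads per kilobase of exon were CXCL10, FTH1, IL1B, CCL3L3, CCL3, TNFAIP2, ISG15, CCL4, PLEK and CCL5. CXCL10, the interferon-induced ligand of CXCR3 (chromosome 4, 76021117 to 76023497), was at 20.8, 160.1 and 92 scaled reads at 0 hr and 43489.8, 72331 and 70283 at 3 hr. Replicate 1 was the lowest at both times, and at 3 hr it was still far above all 0 hr libraries. Per kilobase CXCL10 went from 77.3 to 52751 scaled reads per kilobase of exon. FTH1, the ferritin heavy chain that stores iron, was abundant before LPS, at 16834, 15835 and 18878 scaled reads at 0 hr and 55602, 84759.5 and 83172 at 3 hr. IL1B, the pyrogenic cytokine cut to its active form by inflammasomes, was at 90.9, 12.1 and 33.1 scaled reads at 0 hr and 105883, 52257 and 51941 at 3 hr. Replicate 1 of IL1B was the highest at both times. TNFAIP2, a gene induced by TNF in many cells, was at 1792, 2322 and 2542 scaled reads at 0 hr and 78292, 93241 and 93648 at 3 hr. ISG15, a ubiquitin-like protein joined to other proteins in antiviral defence, was at 832, 2691 and 1145 scaled reads at 0 hr and 13089, 18762 and 18417 at 3 hr, with replicate 2 the highest at 0 hr. PLEK, a substrate of protein kinase C in blood cells, was at 4217, 5162 and 5282 scaled reads at 0 hr and 47902, 53789 and 56597 at 3 hr, with no overlap and little spread.

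CCL3, CCL4 and CCL5 are chemokines that draw monocytes and T cells. CCL3 and CCL4 have near-identical copies, so the counting could divide reads between CCL3 and CCL3L3, and between CCL4 and CCL4L1, and the level of each is uncertain. CCL3 was at 60.6, 108 and 139.6 scaled reads at 0 hr and 27950.2, 28448 and 30797 at 3 hr. CCL4 was at 13, 17.7 and 39.5 scaled reads at 0 hr and 29758, 28917 and 35082 at 3 hr. CCL5, which has no such copy in the table, was at 449, 634 and 618 scaled reads at 0 hr and 19851, 19313 and 22679 at 3 hr. All 3 showed narrow ranges at 3 hr.

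Among the same 2157 genes the largest losses per kilobase were those of IFNGR1, CEBPA, IL6R, HMOX1, EVI2B, CD14, ENG, DOK2, ARHGAP30 and SASH3. IFNGR1, the ligand-binding chain of the interferon gamma receptor (chromosome 6, 137197484 to 137219449), was at 8709, 7963 and 9963 scaled reads at 0 hr and 2809.6, 2413 and 2547 at 3 hr. Its partner chain, IFNGR2, was listed as rising, from 2179 to 7580.0 scaled reads. CEBPA, a transcription factor of myeloid differentiation, was at 7390.0, 7749.5 and 7810.0 scaled reads at 0 hr and 2744, 2599 and 2969.8 at 3 hr. IL6R, the interleukin-6 receptor, was at 12063, 12435 and 12192 scaled reads at 0 hr and 5422, 4483 and 5036 at 3 hr. For these 3 genes no library at 3 hr reached any at 0 hr. HMOX1, which degrades haem, was at 2824, 3607 and 3846 scaled reads at 0 hr and 444, 832 and 949.6 at 3 hr, with replicate 1 the lowest at both times. CD14, the LPS co-receptor, was at 2285, 2549.7 and 2630.5 scaled reads at 0 hr and 828, 709 and 1088 at 3 hr. EVI2B, a leukocyte membrane protein, went from 1112 to 202 scaled reads per kilobase of exon, and SASH3, an adaptor of lymphocyte signalling, from 856 to 170.2 scaled reads per kilobase of exon.

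**Figure D2:**
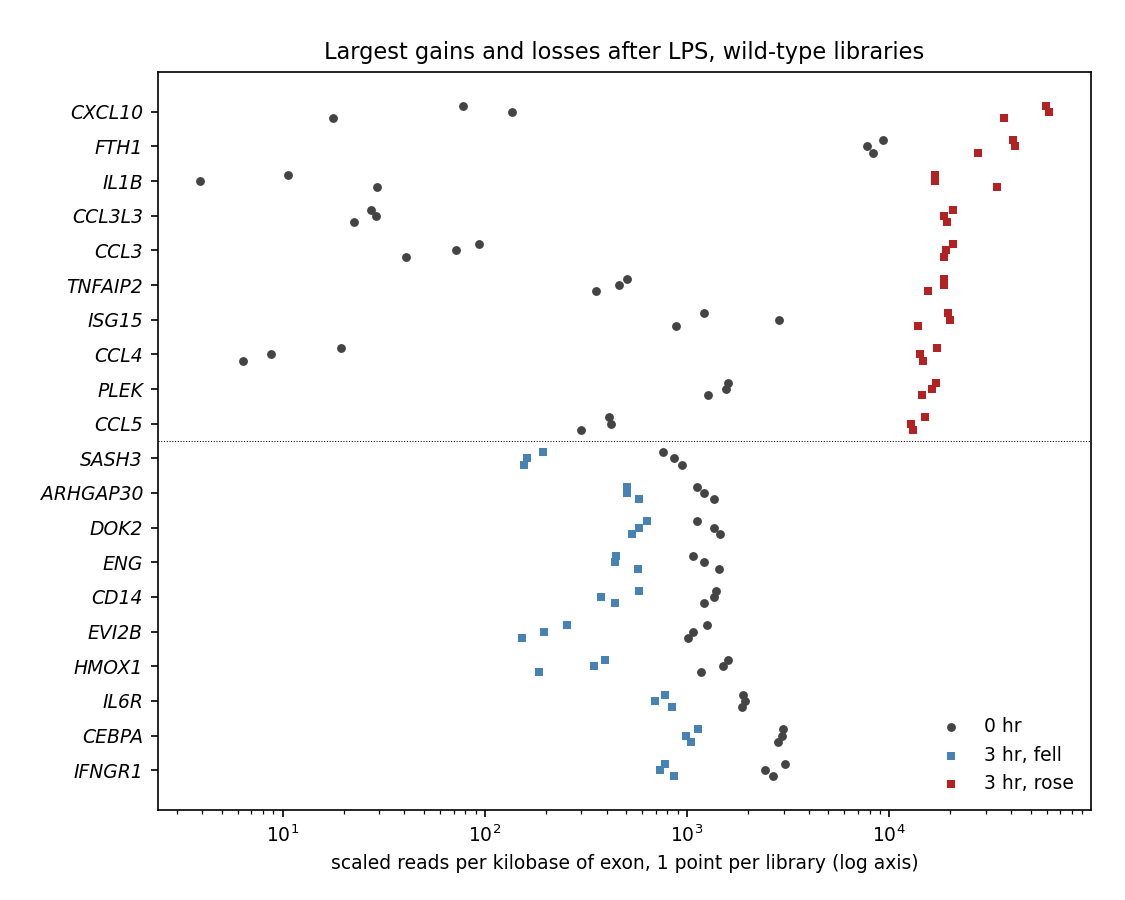
Scaled reads per kilobase of exon (log axis) in each wild-type library for the 10 genes with the largest gain (top) and the 10 with the largest loss (bottom), 3 points per time with replicates 1 to 3 from bottom to top, black circles for 0 hr and squares for 3 hr. Gains run from FTH1, whose times lie close, to IL1B and CCL4, whose times lie far apart, losses are all small on this axis, and no gene overlaps between times.

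The gene groups below were described by 35 lists with 906 distinct members, of which 331 were listed as rising and 53 as falling. A member that is not in the table did not pass the authors' limits, was not tested by them, or stands under another symbol. Each share of members is to be read beside the 8.24% of tested genes that were listed as rising and the 5.11% as falling. The median log2 fold change of all rising genes was 2.20 and of all falling genes -1.47 in the authors' deposited table.

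**Figure D3:**
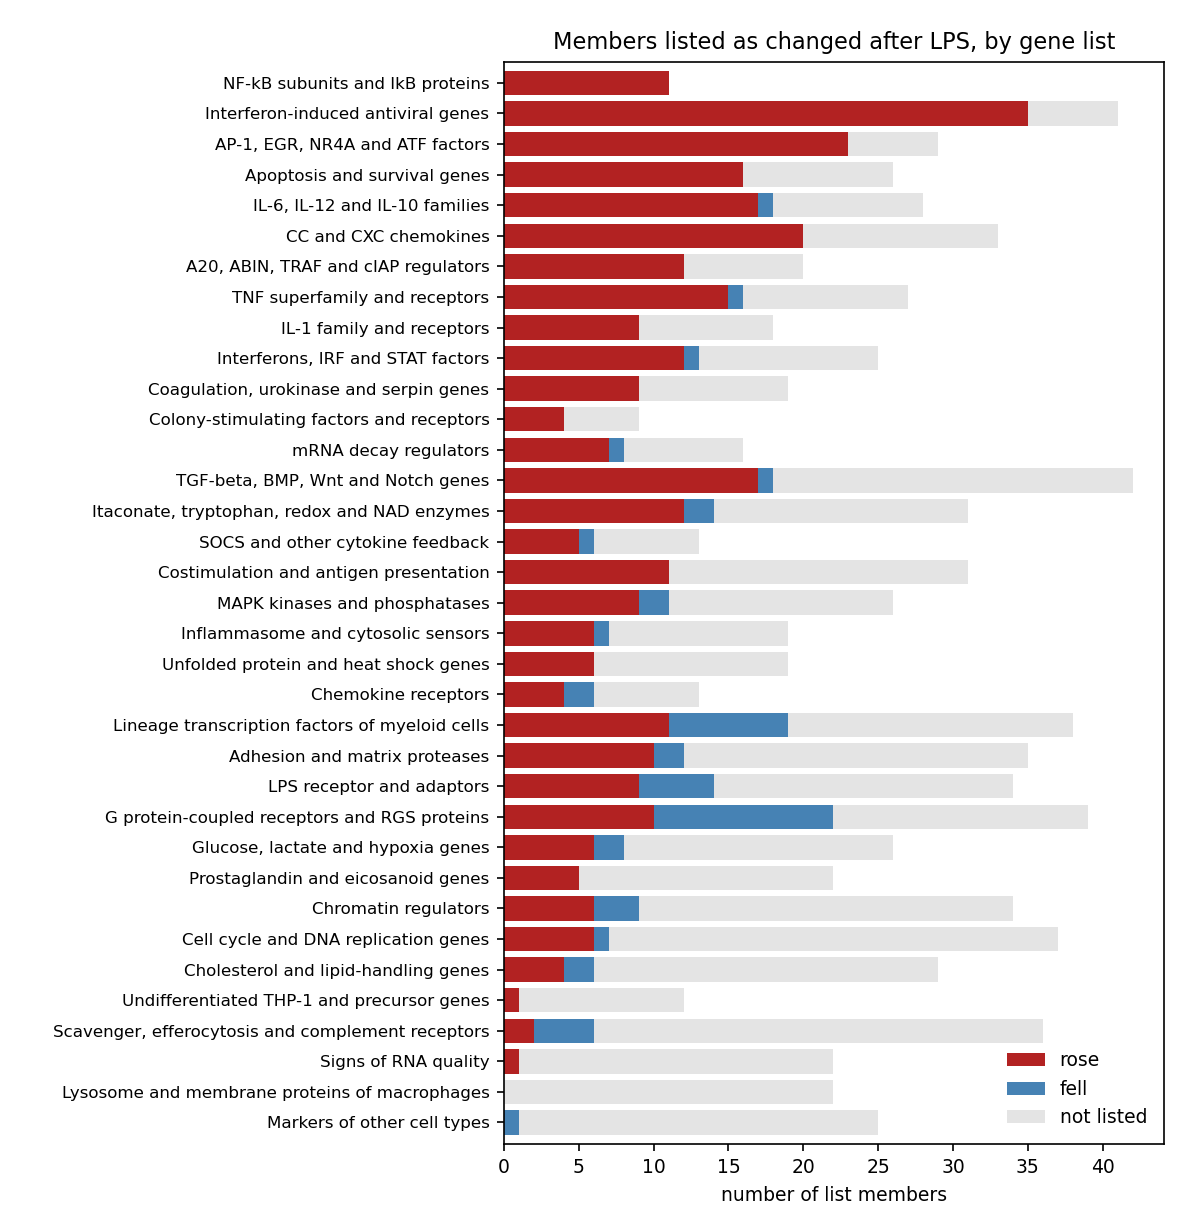
Number of members (x axis) of each of the 35 gene lists that were listed as rising (red), listed as falling (blue) or not listed (grey) in the wild-type table, with the lists ordered by the share that rose. NF-κB and IκB genes and interferon-induced antiviral genes are red almost throughout, while lysosome proteins of macrophages have no listed member.

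At the receptor, 9 of 34 genes of LPS sensing and its adaptors rose and 5 fell (medians of 1.87 and -1.46 in the authors' deposited table). The kinase gene IRAK2, which acts with MyD88, was at 42.4, 66.8 and 68.6 scaled reads at 0 hr and 4597, 4068 and 3909 at 3 hr. TICAM1, the adaptor TRIF, rose from 388 ± 49.4 to 2417 ± 182 scaled reads (SD, n = 3), and MYD88 rose from 1481 ± 361 to 5549.7 ± 973 scaled reads. CD180, a relative of TLR4 that limits its signal, was at 611, 841 and 932 scaled reads at 0 hr and 69.3, 73.7 and 121 at 3 hr, and its 3 hr values were all far below those at 0 hr. TLR1 and TLR6, the partners of TLR2, fell from 364 to 169 scaled reads and from 319 to 85.1 scaled reads, while TLR2 itself rose from 1971 to 4262 scaled reads. The members TLR4, LY96 (MD-2) and LBP were not in the table.

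All 11 NF-κB subunits and IκB proteins rose (median 4.23 in the authors' deposited table). NFKB2, the p100 precursor of p52, was at 309, 352 and 409.8 scaled reads at 0 hr and 12782, 14822 and 14257 at 3 hr. NFKBIA, the inhibitor IκBα, was at 807, 846 and 1118 scaled reads at 0 hr and 28219, 29267 and 29457 at 3 hr, and its 3 hr libraries differed little. BCL3, an atypical IκB protein of the nucleus, rose from 116 ± 11.5 to 3709.7 ± 103 scaled reads (SD, n = 3). RELA, the subunit that carries most of the acute response, changed least, from 1212 to 3349.7 scaled reads. Of 20 ubiquitin regulators of the pathway, 12 rose and none fell. TNFAIP3, the inhibitor A20, was at 222, 384 and 557 scaled reads at 0 hr and 33269.8, 30890.0 and 28893 at 3 hr. TRAF1, a TNF receptor adaptor, was at 49.4, 46.6 and 62.1 scaled reads at 0 hr and 21684, 18830.3 and 22396 at 3 hr. BIRC3, the ubiquitin ligase cIAP2, was at 19.1, 24.9 and 43.6 scaled reads at 0 hr and 3154, 1812 and 2051 at 3 hr, with replicate 1 highest at 3 hr. TNIP3, which binds A20, had no read at rest and 3183 reads in all after LPS, at least 1404-fold higher when rest is set to a floor of 3 reads for the group.

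Of 26 MAP kinases and their phosphatases, 9 rose and 2 fell. The phosphatases that switch MAP kinases off led the list: DUSP5 was at 45, 56.3 and 29 scaled reads at 0 hr and 3088, 2538 and 2681 at 3 hr, and DUSP2 at 83.1, 112 and 89.5 scaled reads at 0 hr and 5815, 3505 and 3896 at 3 hr. MAP3K8, the kinase Tpl2 that is held by p105, was at 145, 143 and 198 scaled reads at 0 hr and 6282, 5771 and 5544 at 3 hr, with a narrow range at 3 hr. DUSP7 fell from 1938 ± 194 to 433 ± 64.9 scaled reads and MAPK14, the kinase p38 alpha, from 2179 ± 90.5 to 1076 ± 182 scaled reads (SD, n = 3).

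Most immediate early and AP-1 factors were higher at 3 hr than at rest. Of 29 members 23 rose and none fell (median 3.41 in the authors' deposited table). NR4A3, an orphan nuclear receptor, was at 29.4, 16.9 and 24.2 scaled reads at 0 hr and 3766, 3054 and 3597 at 3 hr. NR4A1 rose from 23.1 ± 3.40 to 1262 ± 328 scaled reads, CSRNP1 from 243 ± 43.2 to 5213 ± 172 scaled reads and IER3 from 18.2 ± 13.6 to 950.1 ± 337 scaled reads (SD, n = 3). JUNB was among the steadiest genes at 3 hr, at 848, 882 and 763 scaled reads at 0 hr and 9146, 9331 and 9316 at 3 hr.

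Of 25 interferons, interferon regulatory factors, STAT factors and their receptors, 12 rose and 1, IFNGR1, fell. IFNB1, the interferon beta made downstream of TRIF, had 1 read in all before LPS against 725 after it, and the scaled ratio was 959 (95% counting interval, 172 to 37949). IFNL1, a type III interferon, went from 0 reads to 20, at least 8.82-fold higher. IRF1, a transcription factor gene, was at 344, 569 and 432 scaled reads at 0 hr and 10202, 10788 and 9969 at 3 hr. STAT5A, which acts below many cytokine receptors, was at 470.3, 591 and 612 scaled reads at 0 hr and 6426, 6705 and 6626 at 3 hr, with the 3 libraries at 3 hr nearly level.

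Interferon-induced antiviral genes formed the list with the most rising members, 35 of 41, and none fell (median 3.01 in the authors' deposited table). IFIT2, which binds viral RNA, was at 187, 699.7 and 484 scaled reads at 0 hr and 37005, 50651 and 47769 at 3 hr. OASL, a relative of the oligoadenylate synthetases, was at 139, 413 and 182 scaled reads at 0 hr and 9619.8, 15016 and 15028 at 3 hr, GBP5 at 73.6, 60.3 and 42.8 scaled reads at 0 hr and 3198, 6918 and 5465 at 3 hr and GBP4 at 84, 114 and 55.7 scaled reads at 0 hr and 3621, 5283 and 5248 at 3 hr. Guanylate-binding proteins such as these coat bacteria and vacuoles in the cytosol. Replicate 1 was low in this list before and after LPS. It was the lowest replicate for 29 of the 35 genes at 0 hr and for 34 of 35 at 3 hr, against 46.9% and 46.3% of all 2335 genes. The median deviation of the list from the mean of its group was -0.56, 0.55 and -0.003 log2 for replicates 1, 2 and 3 at 0 hr and -0.38, 0.22 and 0.15 at 3 hr. For the NF-κB and IκB list the same values lay between -0.12 and 0.16 at 0 hr and between -0.04 and 0.01 at 3 hr. Low values of replicate 1 were not particular to antiviral genes, since its median deviation was -0.35 and -0.34 log2 at 0 hr and 3 hr over the 5 listed prostaglandin genes and -0.22 and -0.36 over the 6 listed unfolded protein and heat shock genes. Replicate 1 also had the fewest reads on the listed genes at each time, and the part of depth in this order was not tested.

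In the TNF superfamily, 15 of 27 ligands and receptors rose and 1 fell (median of rises 3.95 in the authors' deposited table). TNF was at 63.2, 47.5 and 90.3 scaled reads at 0 hr and 14083, 16430.2 and 15691 at 3 hr, with its 3 hr libraries close together and far above 0 hr. TNFRSF9, the receptor 4-1BB, was at 23.4, 5.63 and 18.6 scaled reads at 0 hr and 3584, 2042 and 2640.1 at 3 hr. LTA, lymphotoxin alpha, was at 1.73, 0.804 and 0.807 scaled reads at 0 hr and 103, 129.8 and 151 at 3 hr, and TNFRSF18 at 2.60, 0.804 and 4.03 scaled reads at 0 hr and 204, 181 and 213 at 3 hr. TNFSF14, the ligand LIGHT, fell from 369 ± 119 to 87.7 ± 36 scaled reads (SD, n = 3).

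Of 18 IL-1 family genes and receptors, 9 rose and none fell, with IL1B in the lead. IL1A, the alarmin of the family, had 2 reads in all before LPS against 1677 after it, and the scaled ratio was 1109.7 (95% counting interval, 307 to 9170.5). Replicate 1 of IL1A was apart at 3 hr, at 1227 scaled reads against 325 and 342. IL18RAP and IL18R1, the chains of the IL-18 receptor, rose from 4.15 ± 2.97 to 1055 ± 226 scaled reads and from 5.72 ± 4.13 to 505 ± 66.3 scaled reads (SD, n = 3). Of 28 genes of the IL-6, IL-12, IL-10 and common gamma chain families, 17 rose and IL6R fell (median of rises 4.82 in the authors' deposited table). IL6 had 1 read in all before LPS against 4234 after it, and the scaled ratio was 5603 (95% counting interval, 1005 to 221369.7). IL23A, the subunit that pairs with p40 to form IL-23, was at 21.7, 34.6 and 23.4 scaled reads at 0 hr and 12442, 10513 and 7597 at 3 hr. IL12B, which encodes p40, had no read before LPS and 906, 617 and 537 scaled reads after it. It was at least 824-fold higher over the pooled reads, against 6.44 log2 in the authors' deposited table. IL7, a growth factor of lymphocytes, had 1 read in all before LPS against 594 after it, and the scaled ratio was 786 (95% counting interval, 141 to 31101). Of 9 colony-stimulating factors and receptors, CSF3, CSF1, CSF2 and KITLG rose and none fell. CSF3 went from no read to 185, at least 81.6-fold higher, and CSF1, the macrophage growth factor, was at 17.3, 40.2 and 32.3 scaled reads at 0 hr and 901, 2066 and 1663 at 3 hr. CSF2 stayed low, at 37.6, 6.23 and 4.28 scaled reads at 3 hr, with most of its 42 reads in replicate 1. Over the pooled reads of the group it was at least 18.5-fold higher, against 2.83 log2 in the authors' deposited table.

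Of 33 chemokine ligands 20 rose and none fell, and their median log2 fold change of 7.46 in the authors' deposited table was the highest of the 35 lists. CCL8, a ligand of monocyte receptors, was at 0.866, 2.41 and 0.807 scaled reads at 0 hr and 5049, 8049 and 7566 at 3 hr. CCL3L3 was at 32.9, 42.6 and 40.3 scaled reads at 0 hr and 28465, 27481 and 30349 at 3 hr and CCL4L1 at 6.06, 10.5 and 27.4 scaled reads at 0 hr and 38737, 39451 and 48878 at 3 hr, both uncertain as copies. CCL4L1 had no exon length and could not be ranked by gain per kilobase. The neutrophil-attracting IL8 (present symbol CXCL8) was at 34.6, 12.9 and 54 scaled reads at 0 hr and 38914, 20793 and 23472 at 3 hr. As in IL1B, replicate 1 was the highest at 3 hr. CXCL9 and CXCL11, which like CXCL10 bind CXCR3, were at 3467, 9324 and 8191 and at 3741, 6706 and 6621 scaled reads at 3 hr, with replicate 1 the lowest in both. Among 13 chemokine receptors, 4 rose and 2 fell. CCR7, which guides cells to lymph nodes, was at 1.73, 0 and 2.42 scaled reads at 0 hr and 713, 417 and 507 at 3 hr. CXCR2, the receptor of IL8, was at 374, 351 and 414 scaled reads at 0 hr and 49.3, 47.8 and 57.8 at 3 hr. CCRL2 and ACKR3, receptors that bind chemokines or chemerin without G protein signalling, rose from 71.6 ± 4.86 to 749 ± 195 scaled reads and from 81.8 ± 24.5 to 549.6 ± 273 scaled reads (SD, n = 3).

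Of 13 SOCS proteins and other inhibitors of cytokine receptors, 5 rose, SOCS6 fell and 7 were not listed. SOCS3 was at 52, 45 and 44.4 scaled reads at 0 hr and 8910.3, 6941 and 6872 at 3 hr and SOCS1 at 6.93, 5.63 and 12.9 scaled reads at 0 hr and 554, 483 and 700.2 at 3 hr. SOCS6 fell from 1114 ± 82.2 to 299 ± 17.7 scaled reads (SD, n = 3). Of 16 regulators of mRNA decay, 7 rose, 1 fell and 8 were not listed. ZC3H12A, the nuclease Regnase-1 that cuts cytokine mRNAs, was at 193, 199 and 229.9 scaled reads at 0 hr and 14552, 13756 and 12752 at 3 hr. PELI1, a ubiquitin ligase placed on this list, rose from 314 ± 48.2 to 5841 ± 1155 scaled reads, and ZC3H12C rose from 573 ± 120.3 to 4588 ± 55.3 scaled reads. ZFP36L1, a protein that binds AU-rich elements, fell from 2929 ± 233 to 729 ± 32.9 scaled reads.

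Of 26 genes of apoptosis and survival, 16 rose and none fell. BCL2A1, a survival protein that NF-κB induces, was at 55.4, 87.7 and 89.5 scaled reads at 0 hr and 4216, 4199 and 3958 at 3 hr. BCL2L14, without a read before LPS, was at least 78.5-fold higher over the pooled reads, against 3.98 log2 in the authors' deposited table. CASP5, an inflammatory caspase that senses LPS in the cytosol, was at 13.9, 24.1 and 31.5 scaled reads at 0 hr and 422, 413 and 425 at 3 hr, and GADD45B rose from 222 ± 26.1 to 2873 ± 88.1 scaled reads (SD, n = 3). Of 19 inflammasome and cytosolic sensors, 6 rose and NLRC4 fell. AIM2, a sensor of DNA in the cytosol, was at 2.60, 3.22 and 0 scaled reads at 0 hr and 116, 172 and 147 at 3 hr. RIPK2, the kinase below NOD receptors, rose from 213 ± 11.8 to 1839.8 ± 253 scaled reads, and MB21D1 (the DNA sensor cGAS) rose from 247 ± 28.5 to 1265 ± 111 scaled reads. NLRC4, the inflammasome protein for flagellin, was at 447, 342 and 344 scaled reads at 0 hr and 39.9, 59.2 and 47.1 at 3 hr.

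Genes of small mediators and metabolites included the largest fold change of the table. IRG1 (present symbol ACOD1), which makes itaconate, had 1 read in all before LPS against 37914 after it, and the scaled ratio was 50175 (95% counting interval, 9005 to 1981878). Of 31 genes of itaconate, tryptophan, redox and NAD metabolism, 12 rose and 2 fell. IDO1, which degrades tryptophan, was at 0.866, 0.804 and 2.42 scaled reads at 0 hr and 1568, 2472 and 2227 at 3 hr. SOD2, the superoxide dismutase of mitochondria, was at 895, 873 and 1236 scaled reads at 0 hr and 95258, 93925 and 96638 at 3 hr, and its 3 hr libraries agreed closely. GCH1, which opens the synthesis of tetrahydrobiopterin, was at 70.1, 45.8 and 52.4 scaled reads at 0 hr and 3945, 4776 and 4932 at 3 hr. The falling members were HMOX1 and GCLC, of glutathione synthesis, which was at 2858, 2881 and 4209.9 scaled reads at 0 hr and 405, 594 and 739.8 at 3 hr. Of 22 prostaglandin and eicosanoid genes, 5 rose and none fell. PTGS2, the inducible cyclooxygenase, was at 27.7, 20.9 and 29 scaled reads at 0 hr and 7595, 3722 and 3546 at 3 hr, with replicate 1 the highest at 3 hr. The prostaglandin receptor PTGER4 rose from 1410.3 ± 230.3 to 9264 ± 1799 scaled reads and PTGER2 from 14.1 ± 7.90 to 207 ± 61 scaled reads (SD, n = 3).

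Of 26 genes of glucose use and hypoxia, 6 rose and 2 fell, so most members were not listed. SLC2A6, a transporter of lysosomal membranes, was at 351, 471 and 582 scaled reads at 0 hr and 12849.8, 12070.1 and 12694 at 3 hr. HIF1A rose from 1469 ± 125 to 4923 ± 351 scaled reads (SD, n = 3). VEGFA spread widely between libraries, at 204, 716 and 600.1 scaled reads at 0 hr and 1468, 3745 and 2173 at 3 hr, with replicate 1 the lowest at both times. PDK4, which restrains entry of pyruvate into the mitochondrial cycle, was at 106, 191 and 207 scaled reads at 0 hr and 2.35, 1.04 and 4.28 at 3 hr, the largest fall by limma among list members, -5.62 ± 0.41 log2. Of 29 genes of cholesterol and lipid handling, 4 rose and 2 fell. ACSL1, which activates fatty acids, was at 938, 1191 and 1252 scaled reads at 0 hr and 17898, 29132 and 27343 at 3 hr. INSIG1, which limits cholesterol synthesis, rose from 1409.7 ± 65.3 to 6575 ± 689 scaled reads, and the cholesterol efflux pump ABCG1 and the nuclear receptor gene PPARG fell from 155 ± 44.2 to 56 ± 11.7 scaled reads and from 528 ± 59.4 to 241 ± 26.8 scaled reads.

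On the cell surface, 10 of 35 adhesion and matrix protease genes rose and 2 fell. ICAM1, a ligand of leukocyte integrins, was at 641, 807 and 1127 scaled reads at 0 hr and 39273, 44447 and 43530.3 at 3 hr. VCAM1, better known from endothelium, had 2 reads in all before LPS against 1759 after it, and the scaled ratio was 1164 (95% counting interval, 322 to 9619). MMP12, macrophage elastase, was at 0.866, 0.804 and 0 scaled reads at 0 hr and 92.8, 98.6 and 96.4 at 3 hr. ITGA4, the integrin chain that binds VCAM1, fell from 1994 ± 81 to 984 ± 67 scaled reads, and SELPLG, the selectin ligand, from 1012 ± 119 to 392 ± 52.4 scaled reads (SD, n = 3). Of 19 coagulation, urokinase and serpin genes, 9 rose and none fell. SERPINE2, an inhibitor of thrombin, was at 48.5, 50.7 and 48.4 scaled reads at 0 hr and 2734, 3843 and 3413 at 3 hr. PLAT, tissue plasminogen activator, was at 0.866, 0.804 and 2.42 scaled reads at 0 hr and 571, 155 and 148 at 3 hr, and THBS1, thrombospondin 1, at 74.5, 83.6 and 82.3 scaled reads at 0 hr and 2218, 1317 and 652 at 3 hr. Both had replicate 1 well above the others at 3 hr.

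Of 31 costimulation and antigen presentation genes, 11 rose and none fell (median 4.72 in the authors' deposited table). CD274, the inhibitory ligand PD-L1, was at 5.20, 11.3 and 7.26 scaled reads at 0 hr and 2349, 2813 and 2665 at 3 hr. CD80, the ligand of CD28 and CTLA-4, was at 6.06, 5.63 and 9.68 scaled reads at 0 hr and 457, 599 and 685 at 3 hr. LAMP3, a marker of mature dendritic cells, was at 19.9, 9.65 and 4.84 scaled reads at 0 hr and 3057, 1686 and 2032 at 3 hr. SLAMF7 was at 59.8, 78 and 45.2 scaled reads at 0 hr and 2423, 5641 and 5782 at 3 hr, with replicate 1 the lowest at 3 hr.

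Scavenger, efferocytosis and complement genes had few listed members, with 2 of 36 rising and 4 falling. MERTK, which takes up dying cells, was at 857, 826 and 1014 scaled reads at 0 hr and 81, 65.4 and 84.6 at 3 hr. DAB2, an endocytic adaptor, was at 3585, 5515 and 5732 scaled reads at 0 hr and 294, 544 and 496 at 3 hr. CD163, the haemoglobin scavenger receptor, was at 1387, 2472 and 3031 scaled reads at 0 hr and 873, 1129 and 1381 at 3 hr, so the lowest library at 0 hr and the highest at 3 hr were nearly level. Its limma adjusted p was above the threshold in 4 of the 6 fits that left out a library, which had no replicate block. The limma adjusted p was 0.0663 and 0.0713 without 0 hr replicates 2 and 3, and 0.0729 and 0.0530 without 3 hr replicates 1 and 2. Between libraries of the same replicate number, CD163 was lower at 3 hr each time. OLR1, a receptor of oxidised LDL, rose from 131 ± 109 to 906 ± 461 scaled reads (SD, n = 3), with replicate 1 the highest at both times. None of 22 lysosome and membrane proteins of macrophages was listed.

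G protein-coupled receptors and RGS proteins split, with 10 of 39 rising and 12 falling. HCAR2 and HCAR3, near-identical neighbours on chromosome 12 whose reads the counting could divide, had no read at 0 hr. They were at least 367-fold and 340.1-fold higher at 3 hr. The adenosine receptors moved apart. ADORA2A, which limits inflammation, was at 0, 0.804 and 0 scaled reads at 0 hr and 70.5, 40.5 and 26.8 at 3 hr, and ADORA3 at 775, 430.3 and 496 scaled reads at 0 hr and 57.6, 22.8 and 35.3 at 3 hr. ADORA2A-AS1, an antisense partner without a read before LPS, was at least 188-fold higher, and since the strand setting of the counting is not given in the sources used here, reads of the pair may be shared. GPR82 and GPR34, neighbours on chromosome X, fell from 160.4 ± 37.1 to 3.65 ± 2.25 scaled reads and from 129.9 ± 31.5 to 9.22 ± 4.39 scaled reads (SD, n = 3). GPR65, a proton-sensing receptor, was at 503, 335 and 413 scaled reads at 0 hr and 32.9, 32.2 and 52.5 at 3 hr.

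Of 42 TGF-beta, BMP, Wnt and Notch genes, 17 rose and 1 fell. DLL4, a Notch ligand, was at 32, 61.1 and 69.4 scaled reads at 0 hr and 3192, 2374 and 2829 at 3 hr. INHBA, the activin A subunit, was at 0.866, 0.804 and 0 scaled reads at 0 hr and 95.1, 55 and 43.9 at 3 hr. HES4, a Notch target, rose from 5.14 ± 3.58 to 222 ± 91.4 scaled reads and FZD2, a Wnt receptor, fell from 320.3 ± 49.1 to 147 ± 62.7 scaled reads (SD, n = 3). Of 38 lineage transcription factors of myeloid cells, 11 rose and 8 fell. ETV3 was at 815, 754 and 809.9 scaled reads at 0 hr and 6855, 4819 and 5611 at 3 hr and IKZF1 at 2416, 2280.2 and 2485 scaled reads at 0 hr and 8417, 10664 and 10183 at 3 hr. Falling members included MAF, a factor of resident macrophages, at 1618, 2193 and 2333 scaled reads at 0 hr and 321, 319.7 and 410.0 at 3 hr, and NFE2, at 225, 174 and 205 scaled reads at 0 hr and 17.6, 13.5 and 23.6 at 3 hr. LYL1 fell from 791 ± 189 to 135 ± 9.33 scaled reads and CEBPE from 55.9 ± 8.23 to 7.24 ± 3.05 scaled reads. Of 34 chromatin regulators 6 rose and 3 fell, with KDM6B, a demethylase of histone H3, at 149, 183 and 153 scaled reads at 0 hr and 2994, 2793 and 2602 at 3 hr and HDAC5, a class II deacetylase, at 1529, 1942 and 1610.1 scaled reads at 0 hr and 451, 592 and 591 at 3 hr.

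The share of rising members was 16.2% for cell cycle, 31.6% for unfolded protein and heat shock and 4.55% for RNA quality genes. Of 37 cell cycle and replication genes, 6 rose and PLK1 fell. CDKN1A, the inhibitor p21, rose from 3194 ± 126 to 10913 ± 1686 scaled reads and PLK3 from 88.1 ± 4.25 to 771 ± 103 scaled reads (SD, n = 3). Of 19 unfolded protein and heat shock genes, 6 rose, among them XBP1, a factor of the unfolded protein response, from 1633 ± 284 to 6852 ± 1436 scaled reads, and DDIT4 from 990.1 ± 209.9 to 5113 ± 2332 scaled reads. Among 22 signs of RNA quality, NEAT1, a nuclear long non-coding RNA, alone was listed, at 517, 750.4 and 931 scaled reads at 0 hr and 1211, 3743 and 2607 at 3 hr, with replicate 1 the lowest at both times.

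A total of 69 rising genes had no read in any wild-type library at 0 hr. After TNIP3, the most reads at 3 hr were those of IL12B, RP11-701P16.5, HCAR2, HCAR3, ADORA2A-AS1, C1QTNF1, CSF3, AQP9 and BCL2L14. AQP9, a channel for water and glycerol, was at 79.9, 46.7 and 71.7 scaled reads at 3 hr, and C1QTNF1 at 183, 118 and 108. RP11-701P16.5, a clone-named transcript, was at 536, 589.6 and 507 scaled reads and was at least 661-fold higher. Only 3 falling genes, LINC00599, RIMBP3C and IGSF22, had no read at 3 hr.

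How far replicates agreed differed between strongly expressed genes. Of the 589 rising genes with at least 1000 scaled reads at 3 hr, the widest ratios of highest to lowest library were those of SESN2, WARS, THBS1, SLC7A11 and NEAT1. SESN2, a stress-induced inhibitor of mTORC1, was at 308, 697 and 541 scaled reads at 0 hr and 609.6, 2751 and 1290.1 at 3 hr, and its groups overlapped. In fits without the replicate block, the limma adjusted p of SESN2 passed the threshold with all libraries. The limma adjusted p was 0.135 and 0.0820 without 0 hr replicates 1 and 3, and 0.124 and 0.0982 without 3 hr replicates 2 and 3. Between libraries of the same replicate number, SESN2 was higher at 3 hr each time. WARS, the tryptophanyl-tRNA synthetase, was at 1548, 3837 and 3089 scaled reads at 0 hr and 7912, 29121 and 24103 at 3 hr, and SLC7A11, the cystine importer, at 276, 473 and 500.1 scaled reads at 0 hr and 776, 2620.2 and 2194 at 3 hr. In SESN2, WARS, SLC7A11 and NEAT1 replicate 1 was lowest and replicate 2 highest at 3 hr, and THBS1 had replicate 1 highest. The narrowest were ACSL5, PEA15, DDX60L, JUNB and CPNE8. PEA15, a death-effector domain protein, was at 3306, 2998 and 2909.6 scaled reads at 0 hr and 10133, 10039 and 10086 at 3 hr.

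At the authors' limit, the rising genes nearest to 1 log2 inside the table were SNAPC4, STX12 and RBBP6, at 1.01, 1.03 and 1.01 log2 by limma. The falling genes nearest to it were CYB5R1, CD163 and ADD3, at -1.005, -0.98 and -1.02 log2. Among genes listed for S80A cells alone, OTUD4, ANP32AP1 and OSGIN2 lay just outside in wild-type cells, at 0.993, 0.993 and 0.990 log2, and ZNF318, PWWP2B and ACOT4 at -0.994, -0.992 and -0.984 log2. Of those 946 genes, 160 were past 1 log2 in wild-type cells by limma, and they are not in the wild-type table.

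The contrast that chose these genes compares wild-type libraries, and the S80A libraries give the same measure in other samples, of another genotype. Whether the S80A libraries entered the authors' size factors, spread or filters is not given in the sources used here. As 17486 tested genes are implied for both tables, the choice may not be wholly independent of them. With limma on the 2335 genes and Benjamini-Hochberg adjustment, 1164 of the 1441 rising genes also rose in S80A cells (80.8%) and 651 of the 894 falling genes also fell (72.8%). The sign was the same for 1388 rising and 859 falling genes, 269 and 238 were not called, and 8 and 5 were called in the opposite direction. The median S80A log2 change was 2.03 for the rising genes, against 2.26 in wild-type cells, and -1.25 against -1.51 for the falling genes. The genes were chosen in the wild-type libraries, and in this difference of medians that choice and the genotype cannot be told apart.

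Large wild-type changes were found again in S80A libraries more often than small ones. Of rising genes, 71.5% of the class of 1 to 2 log2, 85.3% of 2 to 4, 93.0% of 4 to 6 and 96.8% of over 6 also rose in S80A cells. Of falling genes, 70.3% of the class of 1 to 2 log2, 80.6% of 2 to 4 and all 10 beyond 4 also fell. On simulated counts for the S80A libraries, 10% of changes of 1 log2 and 73% of changes of 2 log2 were recovered. For the wild-type libraries the shares were 46% and 96%. The simulation changed only 100 genes of each size among 2335, which makes the adjustment stricter than in the data. These shares are therefore not the recovery of the fit above. A member that was not called in S80A cells is still not thereby shown to be unchanged. By list, S80A cells repeated all 11 NF-κB and IκB rises, 34 of 35 antiviral rises, 18 of 20 chemokine rises and all 11 costimulation rises, against 80.8% of all rising genes. They repeated 10 of 17 rises of TGF-beta, BMP, Wnt and Notch genes and 6 of 9 rises of coagulation genes. The median rises of these lists differed in the authors' deposited table. They were 4.23, 3.01, 7.46 and 4.72 log2 for the NF-κB, antiviral, chemokine and costimulation lists, and 2.10 and 2.66 for the TGF-beta and coagulation lists. As repetition went with the size of the rise, the 80.8% is not matched to these lists. Members not called in S80A cells included THBS1 (0.69 ± 0.62 log2, SE, limma adjusted p = 0.325), SLC2A3 (-0.38 ± 0.31 log2, limma adjusted p = 0.285) and, among falling genes, IL6R (0.30 ± 0.39 log2, limma adjusted p = 0.494). The difference itself was fitted as the limma interaction term, which called 206 of the 2335 genes (8.82%). This term holds the wild-type change by which the genes were chosen, so that choice and the genotype cannot be told apart here either. SLAMF7 rose in both, by 6.15 ± 0.39 log2 in wild-type and 1.29 ± 0.41 log2 in S80A cells (SE), and its interaction had a limma adjusted p of 0.00123.

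**Figure D4:**
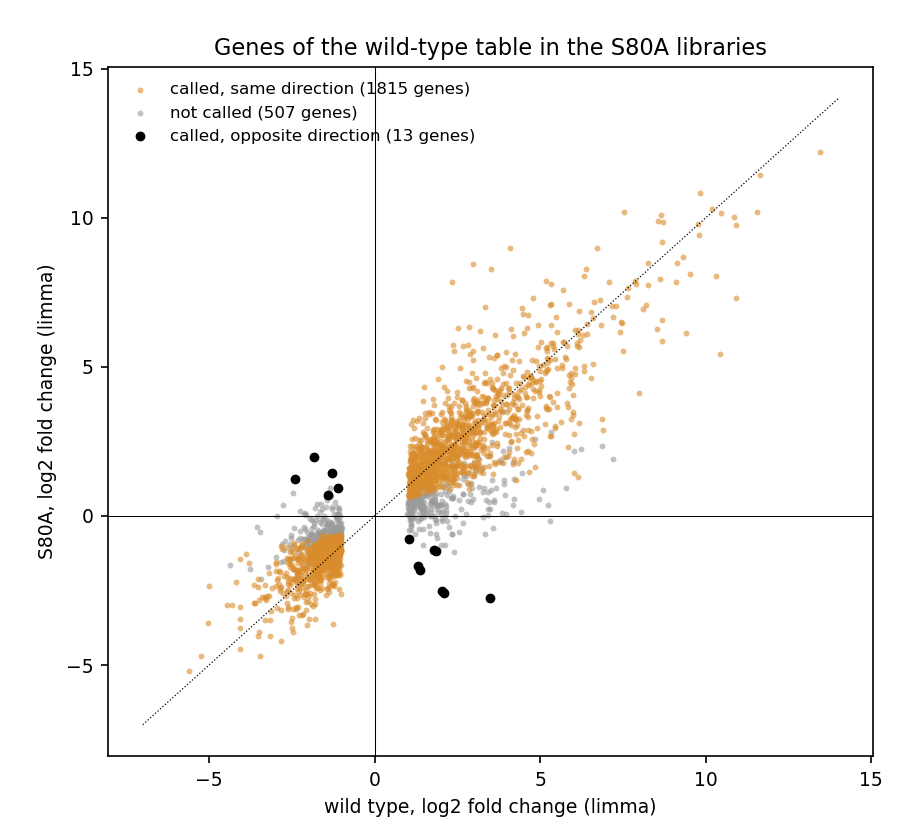
Log2 fold change in S80A libraries (y axis) against that in wild-type libraries (x axis) for the 2335 genes, both by limma on log2(scaled reads + 1), coloured by the call in S80A cells, with the dotted line marking equal changes. Most points lie in the same quadrant on both axes, 1815 called in the same direction, and the 13 black points were called in the opposite direction.

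Promoters were searched for the letters of factor binding sites, on both strands, in windows from 250 bases before to 50 bases after each RefSeq start on GRCh38.p14. There were 35116 windows in all, 1547 of them for 1036 rising genes and 1035 for 687 falling genes. A match is a description of letters, and no binding was measured. To show what such a window looks like, the stretches before the start of leading genes are printed 5′ to 3′ with matches in capitals, where a kB site, bound by NF-κB, is GGG, then 3 bases of any kind, then TTCC, and GAAA, then 2 bases of any kind, then GAAA, is an interferon-stimulated response element (ISRE), bound by IRF and ISGF3 factors, each read on either strand. Stretches stop before the first exon in GENCODE, and for TNFAIP3, whose matches lie within such an exon, 30 bases are shown.
CXCL10, chr4:76023498-76023747, minus strand: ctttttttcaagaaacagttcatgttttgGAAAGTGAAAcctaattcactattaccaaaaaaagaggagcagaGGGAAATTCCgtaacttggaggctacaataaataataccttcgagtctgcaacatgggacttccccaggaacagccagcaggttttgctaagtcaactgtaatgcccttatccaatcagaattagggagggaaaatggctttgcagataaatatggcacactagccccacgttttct
NFKBIA, chr14:35404750-35404999, minus strand: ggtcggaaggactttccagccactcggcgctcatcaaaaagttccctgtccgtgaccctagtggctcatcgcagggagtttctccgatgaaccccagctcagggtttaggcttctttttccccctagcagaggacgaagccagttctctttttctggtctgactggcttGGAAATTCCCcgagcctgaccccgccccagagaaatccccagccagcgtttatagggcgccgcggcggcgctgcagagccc
TNFAIP3, chr6:137867188-137867217, plus strand: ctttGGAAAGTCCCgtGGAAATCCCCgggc
EBI3, chr19:4229273-4229497, plus strand: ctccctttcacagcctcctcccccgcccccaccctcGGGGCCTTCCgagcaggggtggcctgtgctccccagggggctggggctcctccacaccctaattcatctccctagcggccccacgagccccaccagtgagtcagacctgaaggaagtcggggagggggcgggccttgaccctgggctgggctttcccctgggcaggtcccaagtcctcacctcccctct
ISG15, chr1:1013247-1013422, plus strand: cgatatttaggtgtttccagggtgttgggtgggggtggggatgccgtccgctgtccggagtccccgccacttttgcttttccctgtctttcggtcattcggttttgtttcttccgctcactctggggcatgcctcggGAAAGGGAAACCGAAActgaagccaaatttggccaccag
CEBPA, chr19:33302565-33302784, minus strand: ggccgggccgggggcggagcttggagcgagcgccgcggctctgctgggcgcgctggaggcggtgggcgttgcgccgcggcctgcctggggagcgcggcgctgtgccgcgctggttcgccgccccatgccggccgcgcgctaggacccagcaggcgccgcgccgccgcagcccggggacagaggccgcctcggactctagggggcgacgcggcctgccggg
The first base of the kB match lay 177 bases before the start in CXCL10, 81 in NFKBIA, 67 and 55 in TNFAIP3 and 214 in EBI3, and the ISRE match 221 bases before it in CXCL10 and 113 and 107 in ISG15, where the pair overlaps. CXCL10, NFKBIA, TNFAIP3 and EBI3 were the rising genes with a kB match and the largest gains per kilobase, and CXCL10 and ISG15 those with an ISRE. EBI3, a subunit of IL-27 and IL-35, rose from 113 ± 70.8 to 7418 ± 1148 scaled reads (SD, n = 3). CEBPA, a falling gene, is shown for contrast and held neither match. IFNGR1, the other falling gene of this rule, is not printed because its window lies within an annotated exon.

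The share of windows with a kB match was higher the larger the rise. It was 6.52% of all windows and 6.67% of those of falling genes, and 6.40%, 10.9% and 16.5% of those of genes that rose by 1 to 2, 2 to 4 and over 4 log2. The ISRE was in 3.57% of all windows, 1.74% for falling genes, and 5.07%, 8.58% and 6.83% in the 3 classes of rise. The TATA box, TATAAA, was in 11.5% of all windows, 6.57% for falling genes and 10.5%, 13.1% and 19.7% in the classes of rise. The AP-1 site, TGANTCA, was in 7.71% of all windows, 4.83% for falling genes and 10.0% for the class over 4 log2. The E-box CACGTG was most frequent in windows of falling genes, at 11.3% against 7.26% of all, and the GC box GGGCGG was in 62.0% of windows of falling genes, 62.9% of the class of 1 to 2 log2 and 49.0% of the class over 4, against 45% of all. These motifs differ in base composition, and windows of falling and weakly rising genes held the GC-rich letters more often than all windows did. By gene list, an ISRE stood in 17 of the 25 antiviral genes with a window, against 4.38% of all genes. A kB match stood in 7 of 9 NF-κB and IκB genes and 7 of 16 chemokine genes, against 7.83% of all genes. These were chosen as the lists with the most matches, and others that rose had few. A kB match stood in 1 of 18 AP-1, EGR, NR4A and ATF genes, 1 of 9 IL-1 family genes, 1 of 15 TGF-beta, BMP, Wnt and Notch genes and 0 of 9 genes each of the itaconate and redox list and of the lineage factors.

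**Figure D5:**
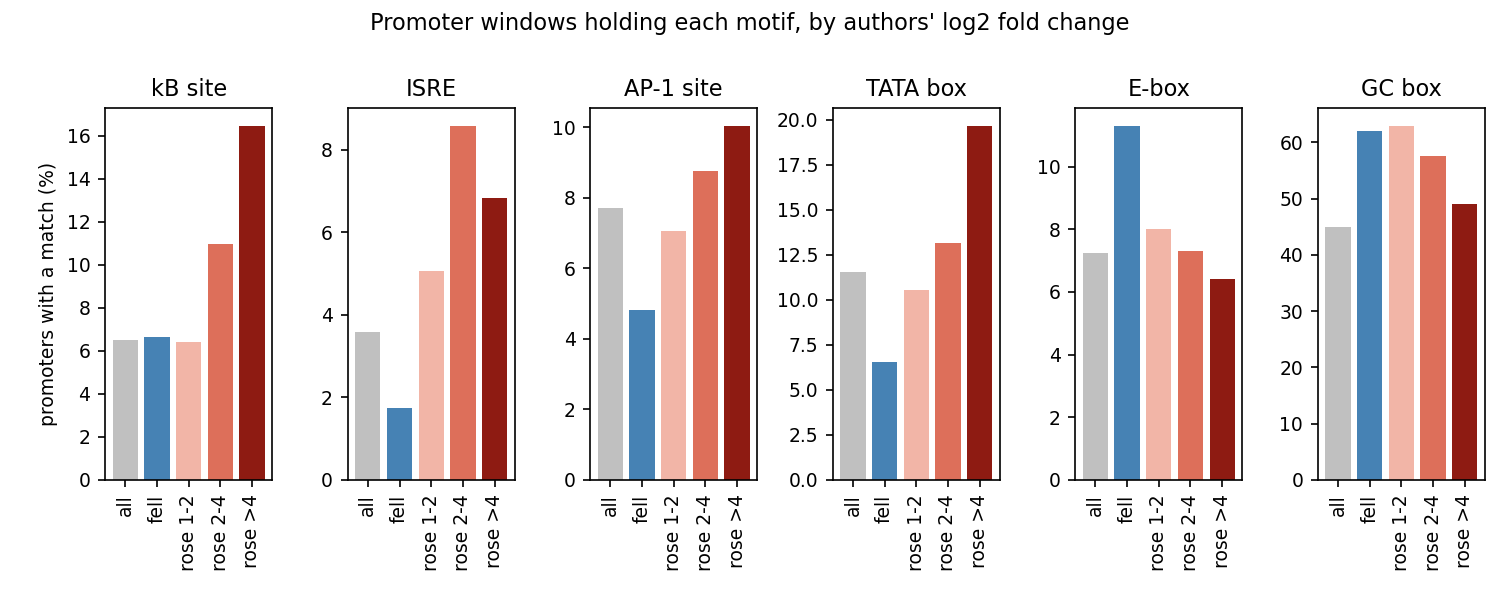
Percentage of promoter windows with at least 1 match to each motif (y axis, its scale set for each panel, from 0) for all RefSeq windows (grey), falling genes (blue) and genes that rose by 1 to 2, 2 to 4 and over 4 log2 (light to dark red). The kB site and the TATA box are most frequent in the darkest bar, at 16.5% and 19.7%, and the E-box in the blue bar, at 11.3%.

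Runs of at least 4 listed genes near each other, with any unlisted genes between them passed over, lay at 34 places. The number of such runs expected by position alone was not worked out. In 21 of these runs rising and falling genes were mixed, in 11 all rose and in 2 all fell. The runs named here were picked after their values were seen, mostly from those that moved 1 way. On chromosome 1, GBP3, GBP1, GBP2, GBP7, GBP4 and GBP5 rose within 89006666 to 89272804, and on chromosome 10 IFIT2, IFIT3, IFIT1 and IFIT5 rose within 89283694 to 89421001 (GRCh38). On chromosome 3, 8 of 8 listed genes between 119294373 and 119767102 rose, from ARHGAP31 past CD80 to MAATS1. On chromosome 22, APOL1 to APOL4, which encode apolipoprotein L proteins, rose within 36140330 to 36267530. On chromosome 6, LTA, TNF and LTB, which encode TNF family ligands, rose together with HCP5 within 31400702 to 31582522. ABCA5, ABCA6, ABCA9 and ABCA10 on chromosome 17 rose within 68974488 to 69327244. On chromosome 19, 6 of 7 listed genes between 17951293 and 18397617 fell, among them MAST3 and LRRC25. These runs were found by joining listed genes at most 100000 bases apart, and near-identical family members may share reads.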

How the data were processed

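RNA of 12 libraries (4 groups of 3) was sequenced from poly(A) RNA with single reads of 75 bases, per the labels' protocols. DESeq2, HTSeq, HISAT, StringTie, Cuffdiff and FastQC stand in the submitters' processing notes beside the build GRCh38, without version or role. The authors deposited 2 tables of changed genes. Their library columns are a normalised signal, gene counts divided by a size factor (0.834 to 1.29), and beside them the authors' deposited tables give log2 fold changes and p-values. Whole reads were recovered from the deposited signal for 100% of values within 0.01 reads. No column belonged to a sample outside the series (0 columns).

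A pseudocount of 1 was added and log2 values were fitted with limma 3.58.1 in R 4.3.3, over the 2335 genes, with Benjamini-Hochberg adjustment at 0.05. Fold changes on this scale understate low genes. Alternatives used edgeR 4.0.16 and DESeq2 1.42.0 on recovered reads, other pseudocounts, a filter, a replicate block and left-out libraries. Same-numbered libraries at 0 hr and 3 hr deviated together (correlations of 0.331, 0.228 and 0.156 in wild-type and 0.278, 0.272 and 0.207 in S80A cells). Between differently numbered libraries the correlations ran from -0.2762 to 0.1475 in wild-type and from -0.2685 to 0.1285 in S80A cells. The numbers may thus pair the libraries, which the labels do not state. Only the fit with the replicate block used this pairing, and the main and left-out fits did not. The fit was tested on simulated data.

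Genes were placed with GENCODE v29 on GRCh38. Of 2335, 2157 matched 1 gene, 93 of them through an older symbol. Exon length is the union of exons. Promoter windows came from RefSeq (GRCh38.p14). Those of chromosome 8 were left out only in choosing the promoters to print, and not from the motif shares. The members, gene lists, motifs and rules were chosen with earlier results of these data known. Genes were named by a rule: NFKB1, the 10 largest gains and losses per kilobase, up to 4 rising and 4 falling members of each list, the 5 widest and 5 narrowest strong genes, 10 genes with no read at rest, those next to the limit, and promoters of leading genes. Further genes, such as RELA, IL8, CXCL9, CXCL11, TLR1, TLR2, MYD88, IFNGR2, genes of chromosomal runs and those called in opposite directions, were named after their values were seen.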

Additional observations from a re-analysis of the deposited data

Results flagged for a closer look

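For 13 genes the change after LPS was called in opposite directions in wild-type and S80A cells, and a test of that difference (the limma interaction term over the 2335 genes, Benjamini-Hochberg adjustment) gave adjusted p-values from 0.00123 to 0.0252. The genes were chosen because their calls were opposite, so these p-values are no separate evidence. They are 13 of the 206 genes (8.82% of 2335) with a called interaction. Of these, 8 rose after LPS in wild-type cells and fell in S80A cells. The S80A change minus the wild-type change was -3.20 log2 in FZD4, -2.94 log2 in LGR4, -4.56 log2 in LOC100505501, -3.03 log2 in LOC102724129, -1.83 log2 in LOC145783, -6.23 log2 in NR5A2, -4.68 log2 in PLK2 and -2.98 log2 in TPPP. The other 5 went the other way, with a fall in wild-type cells, and the same difference was 2.06 log2 in CXCR4, 3.81 log2 in PIK3C2B, 2.09 log2 in PMP22, 2.72 log2 in RGMA and 3.66 log2 in SHISA3. Some of these differences rest on few reads. LOC100505501 was at 0 to 17.6 scaled reads over all libraries, LOC102724129 at 2.60 to 22.5 and SHISA3 at 1.17 to 49.2. RGMA was at 1.55 to 7.97 scaled reads at 0 hr in S80A cells.

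The largest difference was that of NR5A2, a nuclear receptor, which was at 4.33, 0.804 and 1.61 scaled reads at 0 hr and 38.8, 37.4 and 21.4 at 3 hr in wild-type cells and at 112, 208 and 351 scaled reads at 0 hr and 41.5, 12.7 and 44.4 at 3 hr in S80A cells. PLK2, a polo-like kinase, was at 78.8, 55.5 and 68.6 scaled reads at 0 hr and 385, 236 and 273 at 3 hr in wild-type cells and at 1275, 2941 and 4011 scaled reads at 0 hr and 247, 322 and 900.4 at 3 hr in S80A cells. CXCR4, the receptor of the chemokine CXCL12, was at 1027, 1052 and 1264 scaled reads at 0 hr and 522, 458 and 573 at 3 hr in wild-type cells and at 259, 238 and 191 scaled reads at 0 hr and 715, 337 and 355 at 3 hr in S80A cells, so the levels before LPS differed too. LGR4, a receptor of R-spondins, was at 438, 512 and 537 scaled reads at 0 hr and 1654, 1738 and 1759 at 3 hr in wild-type cells and at 452, 465 and 659 scaled reads at 0 hr and 415, 158 and 193 at 3 hr in S80A cells. Levels at 0 hr differed in most of the 13 genes. All but LGR4 of those that fell in S80A cells were higher at 0 hr in each S80A library than in any wild-type one. FZD4 was at 49.4, 40.2 and 44.4 scaled reads at 0 hr in wild-type cells and at 400, 732 and 856 in S80A cells. CXCR4, PMP22 and RGMA were lower in S80A cells at 0 hr, and LGR4, PIK3C2B and SHISA3 overlapped. Genotype and other differences between the cells that carry it cannot be told apart in this design.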

How the results depend on the processing

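With limma, 1440 listed genes rose and 894 fell. Leaving out each library in turn gave 1432 to 1439 and 887 to 894, and the count of rises found again in S80A cells went from 1164 to 1066 to 1130 and of falls from 651 to 515 to 616. The fit with the replicate block gave 1441 rising and 894 falling genes, with 1194 and 693 found again in S80A cells, and changed no call of the 242 named genes other than INHBE, which it called. On recovered reads edgeR gave 1441 and 894 and DESeq2 1441 and 894 (1165 and 660, and 1157 and 672, in S80A cells). Against a change of 1 log2, limma's treat called 1086 rising and 447 falling genes, and 735 and 202 in S80A cells, since it asks for more than the authors' limit. TMM over the listed genes alone moved the median log2 change by -1.01, as most listed genes rose, and left 1069 rising and 894 falling calls. Under it SNAPC4 and RBBP6 reversed sign, at -0.0017 and -0.00083 log2, and no longer counted as rising. A further 14 of the 242 named genes were no longer called (NEAT1, SESN2, PTPN2, CPNE8, STX12, LCP1, TLR2, APOL1, HCP5, ABCA5, FZD4, TPPP, LOC102724129 and LOC145783). With an absolute log2 change over 2 in place of 1, 28 of 53 list counts moved by over 1.5 times.

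Depth limits genes with few reads at rest, where ratios have wide counting intervals. Genes outside the table were not analysed here in wild-type cells, apart from those listed for S80A cells.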

Other observations

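Groups of genes outside the lists were picked by the start of their symbols after the values were seen. Of 47 listed genes whose symbols start with ZNF, most of which encode zinc finger proteins that bind DNA, 7 rose and 40 fell, and 6 and 33 of them did so in S80A cells as well. Genes with symbols starting with TMEM, a label for membrane proteins of various kinds, numbered 8 rising and 21 falling. TRIM genes, many of them ubiquitin ligases of antiviral defence, numbered 10 rising and 4 falling. Of all listed genes, 1441 rose and 894 fell.

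All 9 listed genes with symbols starting with MIR rose, and all 9 also rose in S80A cells, against 80.8% of all rising genes. MIR146A, MIR3945, MIR4734, MIR6732 and MIR8085 had 0 reads in wild-type cells before LPS and 67, 20, 17, 19 and 20 after it. A gene without a read at rest could be listed only by rising, so the wild-type direction of these was fixed in advance. The 9 genes include MIR155HG and MIR146A, which host or encode microRNAs known for limiting or tuning the LPS response, and MIR22HG and MIR17HG. The libraries were made from poly(A) RNA, so these are values of longer transcripts and the mature microRNAs were not measured. Genes with symbols starting with LINC, which are long non-coding RNAs, numbered 19 rising and 7 falling.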
